A study of Mus musculus with 6 samples.

Results

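The genes described here encode the bone morphogenetic protein (BMP) and transforming growth factor beta (TGF-beta) signalling pathway, measured in mouse branchial arch 1 on embryonic day 11.5. The list held 42 genes in 4 roles, namely ligands, receptors, extracellular antagonists or modulators, and feedback or target genes. A probe set, the group of array probes that reads 1 transcript, was taken for a gene when the platform annotation gave it that single gene symbol. By this rule 40 of the 42 genes were measured, with 84 probe sets, among 18194 genes and 45101 probe sets in all. Bmp3 and Gdf6 had no such probe set and were not analysed here. The level of a gene is that of its brightest probe set by the mean of the 6 arrays.

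The 3 arrays labelled control came from Ezh2lox/lox embryos, and the 3 labelled mutant from Wnt1Cre Ezh2lox/lox embryos, so that all 6 embryos carried conditional alleles of Ezh2. Ezh2 is the methyltransferase of the Polycomb repressive complex PRC2, which modifies histone H3 and keeps many developmental genes silent. The Wnt1Cre transgene targets the Ezh2 deletion to the neural crest, the source of most of the arch mesenchyme. Epithelium, mesoderm-derived muscle, endothelium and blood of the arch lie outside the crest lineage. Each embryo gave 1 arch and 1 array, and neither the strain nor the sex is given in the labels. Total RNA was hybridised to 1-colour arrays, and the deposited values are on a log2 scale on which all 6 arrays share 1 distribution with a median of 5.81 and a 25th percentile of 4.33. Precision is limited by the small number of arrays.

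BMP and TGF-beta ligands are secreted dimers that join type I and type II receptor kinases at the cell surface. The activated type I receptor phosphorylates SMAD proteins, which enter the nucleus and switch target genes such as the Id genes on. Secreted antagonists such as noggin, gremlin and follistatin bind ligands before they reach a receptor, and latent TGF-beta binding proteins hold TGF-beta in the matrix. In the jaw arch, BMPs from the epithelium regulate Msx genes in the mesenchyme, and TGF-beta signals are known for their part in palate, cartilage and muscle formation.

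The labels could not be checked with the targeted gene. Ezh2 read 11.63 ± 0.15 (SD, n = 3) on the labelled-control arrays and 11.66 ± 0.01 on the labelled-mutant arrays, and where its probes lie relative to the deleted part was not determined here. Hoxa9, a gene that PRC2 is known to silence, read 11.28 ± 0.37 on the labelled-control arrays and 4.21 ± 0.36 on the labelled-mutant arrays. Hoxa10 read 10.57 ± 0.23 and 3.86 ± 0.07 in the same order. Loss of silencing would raise such genes, whereas both were lower on the labelled-mutant arrays. Whether the labels are exchanged was not tested. The groups are therefore named by their labels throughout, and every sign below would turn if the labels were exchanged. Xist read 5.62 against 13.03 and the Y-linked gene Kdm5d 9.18 against 2.95 (means, labelled control against labelled mutant), so that all labelled-control arrays had a male and all labelled-mutant arrays a female pattern, and sex and genotype label cannot be told apart. Of the 40 genes only Chrdl1 lies on a sex chromosome, the X. Markers of arch mesenchyme were bright in both groups, with Prrx1 between 12.23 and 12.64 and Twist1 between 11.10 and 11.52 over the 6 arrays. Markers were called by the threshold given below, by which 4.3% of all genes were called lower and 1.23% higher. The log2 of the summed signal of 8 neuronal markers ran from 11.23 to 11.53 on the labelled-control arrays. On the labelled-mutant arrays it ran from 9.99 to 10.31. All 8 neuronal differences were negative, and 5 were called lower. For 8 muscle markers the sum ran from 10.76 to 11.32 and from 9.52 to 10.53. Of the 8 muscle differences 7 were negative, and 3 were called lower. For 8 endothelial markers the sum ran from 10.69 to 11.06 and from 10.82 to 10.92. For 8 epithelial markers it ran from 11.94 to 12.52 and from 12.20 to 12.24. The part of these cell types in the results below was not tested. All 7 erythroid and all 8 macrophage differences were negative, and 1 of each was called lower. The summed erythroid signal ran from 15.75 to 15.99 on the labelled-control arrays and from 15.66 to 15.79 on the labelled-mutant arrays. For the macrophage markers it ran from 10.14 to 10.61 and from 9.86 to 10.18. Of 8 mesenchymal markers 2 were called higher and 1 lower. Of 8 epithelial markers 1 (Krt8) was called higher, and no endothelial marker was called. In whole arches, fewer cells of a type and less RNA per cell cannot be told apart.

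Several secreted factors of the pathway were lower in the labelled-mutant arches, while a BMP receptor and a pseudoreceptor were higher. None of the 7 genes listed as feedback or target genes passed, but the BMP targets Msx1 and Msx2 of a further list were higher. Gdf10 (BMP3B) fell 7.46-fold, the antagonist Grem1 4.49-fold and Bmp2 2.81-fold, whereas Bmpr1b rose 1.74-fold and Bambi 1.53-fold. A gene was called when its Benjamini-Hochberg adjusted p over all 18194 genes was below 0.05 in limma's moderated test (two-sided). Of the 40 genes measured, 9 were called lower, 2 higher and 29 were not called. Over all genes 5.53% were called, 4.3% lower and 1.23% higher, against 27.5% of the pathway genes. The genes were listed with earlier results of these data known, so the higher share is a description. The median difference was -0.001 over the 40 genes and 0.02 over all genes. By role, 10 of 13 ligand differences were negative (median -0.31) and all 7 feedback or target differences positive (median 0.15). Over all 18194 genes 8131 differences were negative and 10063 positive. The roles were not compared by a test. The arrays of the 2 groups did not overlap for 18 of the 40 genes, and for 24.9% of all genes. Gdf5, Gdf10, Inhba, Bmpr1b and Bambi kept their call under every alternative processing that tested them. The 13 alternatives counted below leave out a fit with the replicate number as a block.

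**Figure D1:**
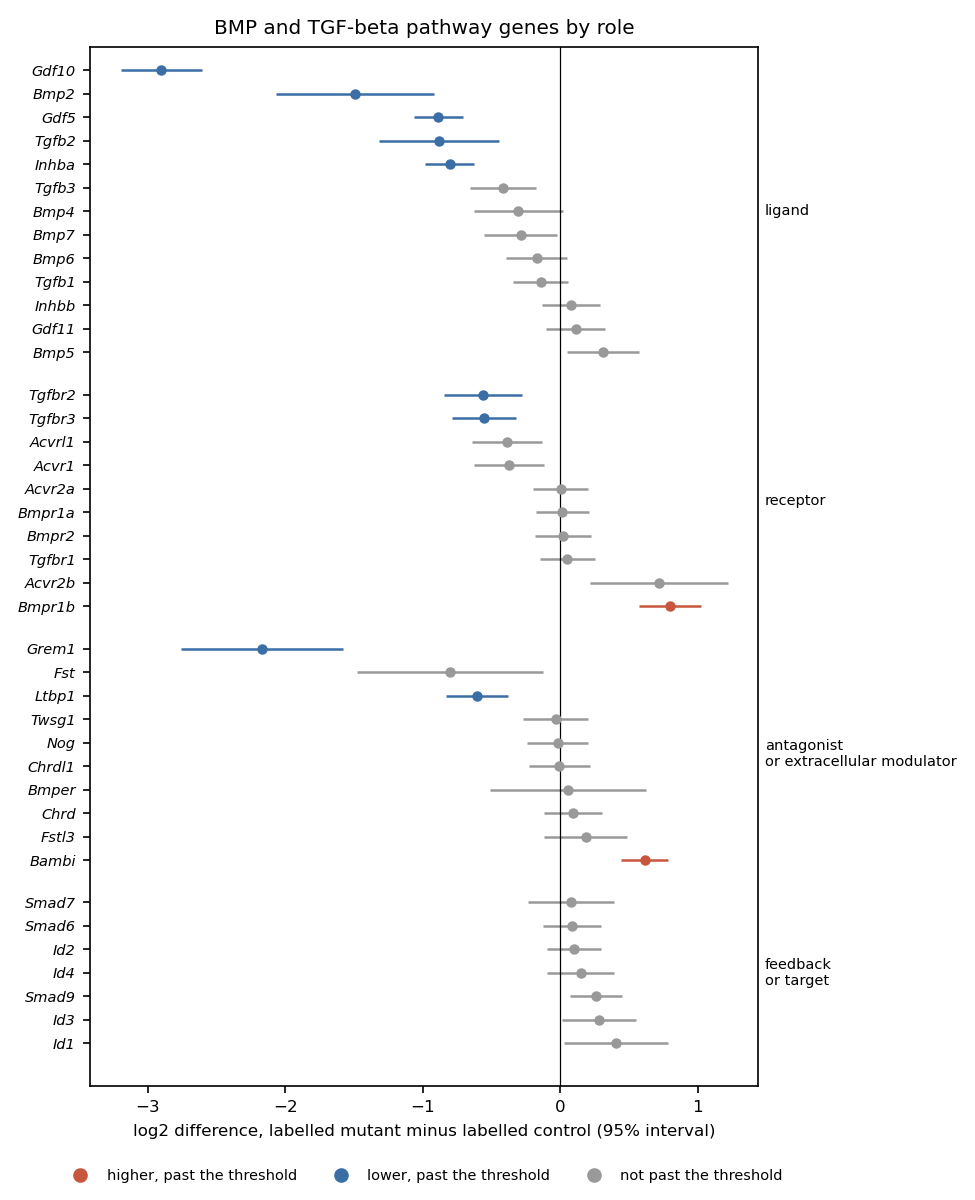
Log2 difference (labelled mutant minus labelled control, n = 3 arrays each) with its 95% interval from limma for the 40 pathway genes, ordered within each role. Coloured points passed the threshold, blue for lower and red for higher. Gdf10 and Grem1 lie farthest to the left, and all 7 feedback or target genes lie to the right of 0 without passing.

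Promoter sequences are shown for 3 of the ligand and antagonist genes that fell. PRC2 is known in mammals to bind at promoters rich in the dinucleotide CG. Its binding was not measured here, and its part in these differences was not tested. The windows run from 250 bases before to 50 after the annotated start and come from RefSeq (GRCm38.p6). Capitals mark each CG. Gdf10 lies at chr14:33923337-33923636 on the plus strand, Grem1 at chr2:113758599-113758898 on the minus strand and Inhba at chr13:16011601-16011900 on the plus strand.
Gdf10: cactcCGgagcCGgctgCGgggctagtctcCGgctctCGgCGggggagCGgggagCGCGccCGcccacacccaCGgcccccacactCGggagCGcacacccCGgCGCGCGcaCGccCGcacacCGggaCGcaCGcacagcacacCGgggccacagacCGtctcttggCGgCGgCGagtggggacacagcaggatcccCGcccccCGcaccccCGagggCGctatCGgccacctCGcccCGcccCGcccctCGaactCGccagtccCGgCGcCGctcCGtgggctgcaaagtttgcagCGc
Grem1: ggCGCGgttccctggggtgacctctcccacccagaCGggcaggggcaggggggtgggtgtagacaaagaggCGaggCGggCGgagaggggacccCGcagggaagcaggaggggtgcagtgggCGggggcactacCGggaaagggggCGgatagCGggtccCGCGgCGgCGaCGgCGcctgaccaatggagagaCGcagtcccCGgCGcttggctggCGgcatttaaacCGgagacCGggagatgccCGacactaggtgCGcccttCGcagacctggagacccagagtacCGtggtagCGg
Inhba: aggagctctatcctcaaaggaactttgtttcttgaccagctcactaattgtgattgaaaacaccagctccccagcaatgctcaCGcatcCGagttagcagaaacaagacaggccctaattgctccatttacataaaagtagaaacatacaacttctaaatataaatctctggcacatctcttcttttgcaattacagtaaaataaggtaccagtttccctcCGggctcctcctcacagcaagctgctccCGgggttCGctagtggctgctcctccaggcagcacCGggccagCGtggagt
The window of Gdf10 held 42 CG and that of Grem1 28, placing them at the 97.0th and 85.7th percentile of 27025 genes, whereas that of Inhba held 7. A window was found for 28 of the 42 genes (for several windows of a gene, that with most CG was counted). Their median was 27 CG, against 8 over the 27025 genes with a window, whether or not the array measured them. Among the 7 called genes with a window it ran from 6 in Bmpr1b to 42 in Gdf10 with a median of 15, and among the 21 that were not called from 4 in Bmp5 to 54 in Acvr2a with a median of 30. The ranges of called and other genes thus overlapped. The sequence GGCGCC, the same on both strands and part of the BMP-responsive element known from Id1, was in the windows of Gdf10 and Grem1 but not of Inhba. It was found in 9 of the 28 windows (32.1%) and in 12.8% of the same 27025 genes, without adjustment for CG content. Among genes with a window it was in 2 of the 7 called (28.6%) and 7 of the 21 not called (33.3%). A match is a description of letters and not a binding site.

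Among the ligands, 5 of 13 were called (38.5%, against 5.53% of all genes), all lower. Gdf10, a BMP3-like ligand, read 7.42, 7.93 and 7.68 on the labelled-control arrays and 4.89, 4.78 and 4.66 on the labelled-mutant arrays. The groups lay far apart, and the labelled-mutant arrays were close to each other and nearer to the array's 25th percentile. The log2 difference was -2.90 (standard error 0.13, limma adjusted p = 8.94e-06), a fold of 7.46 with a 95% interval of 6.08 to 9.17. Bmp2, which induces bone and cartilage and acts in arch epithelium and mesenchyme, read 8.51, 9.16 and 8.87 against 7.95, 7.10 and 7.01. The groups did not overlap, and labelled-mutant array 1 lay closest to the labelled-control arrays. Bmp2 fell by 1.49 (standard error 0.25, limma adjusted p = 0.0112). It missed the threshold without labelled-control array 2 (difference -1.34, adjusted p = 0.0577), without labelled-mutant array 3 (-1.32, adjusted p = 0.0503) and with signals floored at the array's 20th percentile (adjusted p = 0.106), with adjusted p between 0.00155 and 0.106 over its 13 alternatives, all from limma.

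Gdf5, the ligand that marks future joints, read 5.93, 6.03 and 5.90 against 5.03, 5.15 and 5.02. Every labelled-mutant value was below every labelled-control value, and each group was tight, at signals near the array's median. The log2 difference was -0.89 (standard error 0.08, limma adjusted p = 4.64e-04). Inhba, the subunit of activin A, read 6.99, 7.10 and 7.07 against 6.17, 6.27 and 6.31, and its groups were as tight and separate. It fell by 0.80 (standard error 0.08, limma adjusted p = 7.53e-04). A dimmer probe set of Inhba, with means of 4.44 and 4.48, had a difference of 0.04.

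Tgfb2 was the TGF-beta isoform that was called. It read 9.95, 10.14 and 9.97 on the labelled-control arrays and 9.51, 8.65 and 9.25 on the labelled-mutant arrays, with labelled-mutant array 2 lowest and no overlap. The log2 difference was -0.88 (standard error 0.19, limma adjusted p = 0.0338). Its 4 probe sets gave like differences of -0.94, -0.93, -0.88 and -0.86, and in a fit over all single-symbol probe sets, of which 2.82% were called (2.27% lower), 2 of the 4 passed. The brightest probe set, which gave the gene its call, missed there (limma adjusted p = 0.0639). The call was lost without labelled-control array 1 (difference -0.92, adjusted p = 0.0747), 2 (-0.82, 0.132) or 3 (-0.91, 0.0687). It was also lost without labelled-mutant array 3 (-0.94, 0.0895) but kept without array 2 of that group (-0.64, 0.0337). Over all fits that left out 1 array the difference ran from -1.07 to -0.64. Over 13 alternatives the limma adjusted p ran from 0.0131 to 0.158, and 6 missed the threshold.

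The other 8 ligands were not called. Tgfb3, the isoform known for palate fusion, read 7.18, 7.26 and 7.37 against 7.05, 6.70 and 6.81, without overlap. Its difference of -0.41 had an adjusted p of 0.0619 (limma) and passed only without labelled-mutant array 1 (-0.51, adjusted p = 0.0279), out of 13 alternatives. Bmp5 differed by 0.31 in the other direction (95% interval 0.05 to 0.58, limma adjusted p = 0.190), with labelled-mutant array 2 among the labelled-control values. Bmp4, the ligand of the distal arch epithelium, read 9.35, 9.75 and 9.93 against 9.44, 9.25 and 9.43, and the groups overlapped. Its difference was -0.31 (95% interval -0.63 to 0.02) and passed only without labelled-control array 1 (-0.47, limma adjusted p = 0.0412), out of 13 alternatives. Bmp7, Bmp6, Tgfb1, Gdf11 and Inhbb had differences between -0.29 and 0.11. Of these, Bmp6 and Tgfb1 lay below the array's median on every array. The second, dimmer probe set of Inhbb, the subunit of activin B, read 4.87, 5.27 and 5.16 against 4.46, 4.65 and 4.44 and was called lower in the fit over probe sets (difference -0.59, limma adjusted p = 0.0459), while its brighter one differed by 0.08.

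**Figure D2:**
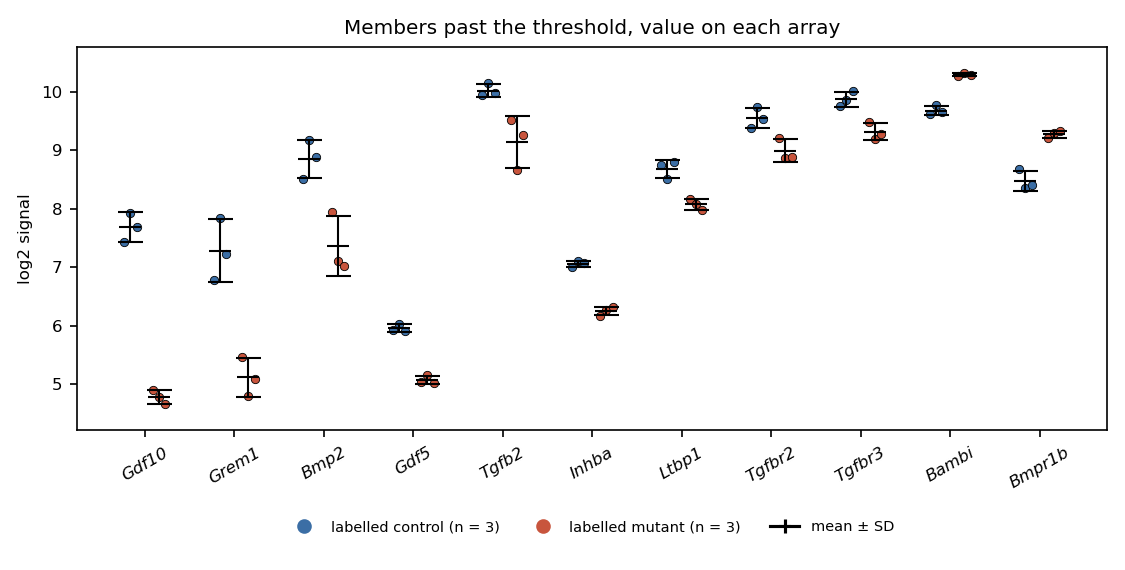
Log2 signal of the 11 called pathway genes on each array, with points for single arrays and bars for the mean ± SD of 3 arrays, labelled control in blue and labelled mutant in red. The groups do not overlap for any of the 11 genes. Levels of different genes are not comparable, since each has its own probes.

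Among the receptors, 2 of 10 were called lower and 1 higher, and 7 were not called. The called share was 30%, against 5.53% of all genes. Bmpr1b, a type I BMP receptor of cartilage condensations, read 8.67, 8.36 and 8.40 on the labelled-control arrays and 9.20, 9.29 and 9.32 on the labelled-mutant arrays. All labelled-mutant arrays were higher and close together. It rose by 0.80 (standard error 0.10, limma adjusted p = 0.00298). Its 2 dimmer probe sets differed by 0.68 and 0.25, the same way, without passing. Tgfbr2, the type II receptor for TGF-beta, read 9.38, 9.74 and 9.53 against 9.21, 8.87 and 8.88. The groups came close at labelled-control array 1 and labelled-mutant array 1 but did not overlap. It fell by 0.56 (standard error 0.12, limma adjusted p = 0.0366). Tgfbr3, the co-receptor betaglycan, read 9.75, 9.85 and 10.01 against 9.48, 9.20 and 9.27, again with no overlap. It fell by 0.56 (standard error 0.10, limma adjusted p = 0.0164).

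Both TGF-beta receptor calls were lost in some fits that left out 1 array. Over all fits that left out 1 array the difference ran from -0.67 to -0.47 for Tgfbr2. For Tgfbr3 it ran from -0.64 to -0.49. Tgfbr2 missed the threshold without labelled-control array 2 (difference -0.47, limma adjusted p = 0.124) or 3 (-0.57, 0.0732) and without labelled-mutant array 2 (-0.50, 0.152) or 3 (-0.51, 0.155). Its 2 dimmer probe sets differed by 0.16 and 0.03, and the mean of its probe sets differed by -0.13 (adjusted p = 0.399), so that 7 of 13 alternatives missed, with adjusted p from 0.0189 to 0.399. Tgfbr3 missed it without labelled-control array 2 (-0.57, 0.0613) and without labelled-mutant array 2 (-0.50, 0.0800) or 3 (-0.53, 0.0828), with adjusted p from 0.00854 to 0.0835 over 13 alternatives.

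The other 7 receptors were not called. The receptors Tgfbr1, Bmpr1a, Bmpr2 and Acvr2a differed by 0.05, 0.02, 0.02 and 0.003, and the 95% intervals of these differences lay within -0.20 and 0.26. At this precision a change of the size seen in Bmpr1b would lie outside their intervals. Acvrl1 (ALK1), a type I receptor of endothelium, read 6.04, 5.77 and 5.74 against 5.45, 5.62 and 5.32, with a difference of -0.39 (limma adjusted p = 0.0983). Acvr1 (ALK2), a type I BMP receptor, differed by -0.37 (adjusted p = 0.112) and passed only without labelled-control array 1 (-0.47, adjusted p = 0.0427), out of 13 alternatives, all with limma. Acvr2b, a type II activin receptor, was singled out after its values were seen. It read 8.92, 8.94 and 8.03 against 9.24, 9.43 and 9.37, so that labelled-control array 3 alone lay far below the rest. Its difference was 0.72 with a standard error of 0.22 (limma adjusted p = 0.117), and without that array it was 0.42 with a limma adjusted p of 0.0398. The mean of its 3 probe sets also passed (0.42, limma adjusted p = 0.0390), and the adjusted p ran from 0.0390 to 0.309 over 13 alternatives.

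**Figure D3:**
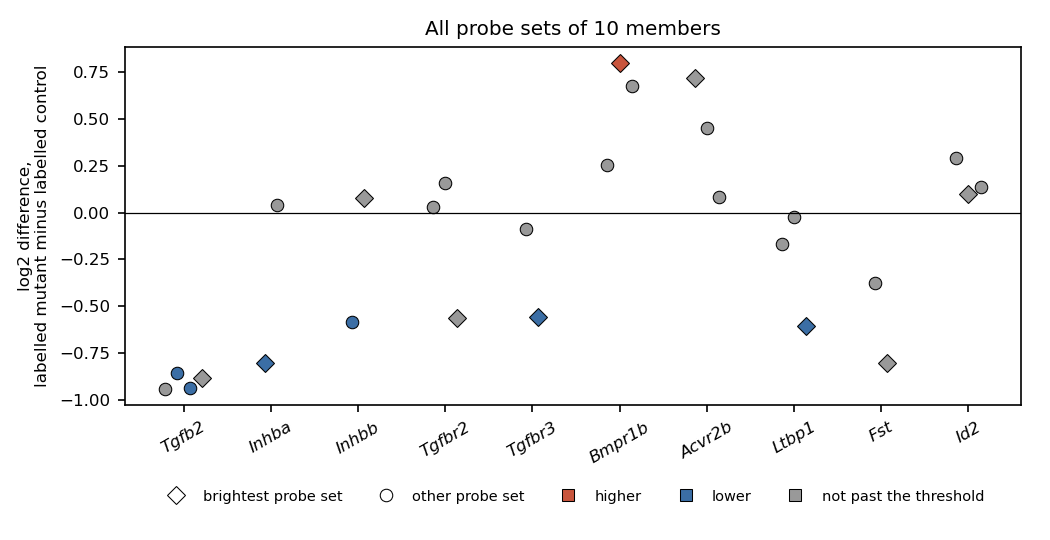
Log2 difference (labelled mutant minus labelled control) of every probe set of 10 pathway genes with several probe sets, from a fit over all single-symbol probe sets. Diamonds are the brightest probe set of a gene, circles the others, and colour shows whether the probe set passed in that fit. The 4 probe sets of Tgfb2 lie together between -0.94 and -0.86, while those of Inhba, Tgfbr2, Tgfbr3 and Ltbp1 spread from the brightest one to near 0.

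Among the antagonists and modulators, 2 of 10 were called lower and 1 higher, a share of 30% against 5.53% of all genes. Grem1, a secreted antagonist of BMP2 and BMP4, read 6.77, 7.84 and 7.23 on the labelled-control arrays and 5.45, 4.80 and 5.08 on the labelled-mutant arrays. The groups were well apart although the labelled-control arrays were spread by about 1 unit. It fell by 2.17 (standard error 0.26, limma adjusted p = 0.00248), a fold of 4.49 with a 95% interval of 2.99 to 6.75. With floored signals, which left its own values unchanged, the adjusted p was 0.0613, the highest of 13 alternatives, whose lowest was 0.00248 (limma). Ltbp1, which stores latent TGF-beta in the matrix, read 8.74, 8.50 and 8.80 against 8.16, 8.09 and 7.97, with no overlap. It fell by 0.61 (standard error 0.10, limma adjusted p = 0.0101). Its 2 dimmer probe sets differed by -0.17 (means 4.99 and 4.83) and -0.02 (means 3.88 and 3.86). Its call was lost without labelled-mutant array 3 (-0.56, adjusted p = 0.0564), with floored signals (0.0666) and with the mean of its 3 probe sets (-0.26, adjusted p = 0.102), in a range of 0.00631 to 0.102 over 13 alternatives (limma).

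Bambi, a receptor-like protein without a kinase domain that dampens signalling, read 9.62, 9.76 and 9.65 against 10.27, 10.31 and 10.29. The labelled-mutant arrays were nearly equal and all higher. It rose by 0.61 (standard error 0.07, limma adjusted p = 0.00272). Bambi is also known as a gene that BMP signals switch on, although it was not listed here among the feedback or target genes.

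The other 7 modulators were not called. Fst encodes follistatin, which binds activins and also acts in muscle. It read 7.72, 7.64 and 7.76 on the labelled-control arrays and 7.64, 6.19 and 6.88 on the labelled-mutant arrays, so that labelled-mutant array 1 lay among the labelled-control values and array 2 was lowest. The summed muscle markers were 10.76, 11.32 and 11.15 on labelled-control arrays 1, 2 and 3. On labelled-mutant arrays 1, 2 and 3 they were 10.53, 9.52 and 9.93. Fst and these sums ranked the labelled-mutant arrays alike, but not the labelled-control arrays. The part of muscle in the level of Fst was not tested. Its difference was -0.80 with a standard error of 0.30 (limma adjusted p = 0.190), and without labelled-mutant array 1 it was -1.17 with an adjusted p of 0.0121, the only 1 of 13 alternatives in which it passed. Without labelled-mutant array 2 the difference was -0.45 with an adjusted p of 0.396 (limma). Fstl3, a follistatin relative, differed by 0.18 (95% interval -0.12 to 0.49). The classical BMP antagonists chordin and noggin showed no detectable difference, with Chrd at 0.09 (95% interval -0.12 to 0.30) and Nog at -0.02, but Nog was under the 25th percentile of all 6 arrays, where a change may go unseen. Chrdl1, Twsg1 and Bmper differed by -0.01, -0.03 and 0.06. The interval of Bmper was the widest of these, from -0.51 to 0.62, as its values within each group were spread.

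None of the 7 feedback or target genes was called with limma. All 7 differences were positive, and 3 had an unadjusted p below 0.05. Over all 18194 genes 10063 differences were positive, and 3405 genes had an unadjusted p below 0.05. Id1, an inhibitor of differentiation factors and a direct BMP target, read 11.54, 12.00 and 11.75 against 12.48, 12.16 and 11.87. The groups overlapped, since labelled-mutant array 3 lay below labelled-control array 2. The difference was 0.41 with a 95% interval of 0.03 to 0.79 (limma adjusted p = 0.233). Id3 read 11.36, 11.59 and 11.56 against 12.00, 11.77 and 11.58 and overlapped likewise, with a difference of 0.28 (adjusted p = 0.251). On both Id1 and Id3 labelled-mutant array 1 was highest and array 3 lowest of its group. Smad9, a receptor-regulated SMAD of the BMP branch, read 4.60, 4.44 and 4.68 against 4.85, 4.81 and 4.85. At the brightest probe set it was the only one of the 7 whose groups did not overlap. Its signals lay below the array's median, with a difference of 0.26 (limma adjusted p = 0.130). At the brightest probe set of each, Id2, Id4 and the inhibitory SMAD genes Smad6 and Smad7 differed by 0.10, 0.15, 0.09 and 0.08. Their 95% intervals all included 0 and reached no further than 0.39. A dimmer probe set of Id2, with means of 11.25 and 11.54, differed by 0.29 (95% interval 0.02 to 0.56). Its groups did not overlap, and it was not called in the fit over probe sets (limma adjusted p = 0.295). The dimmest of Id2 differed by 0.14, and the dimmer ones of Id4 by 0.33 and 0.05. The median of the 7 differences was 0.15, against 0.02 over all genes.

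**Figure D4:**
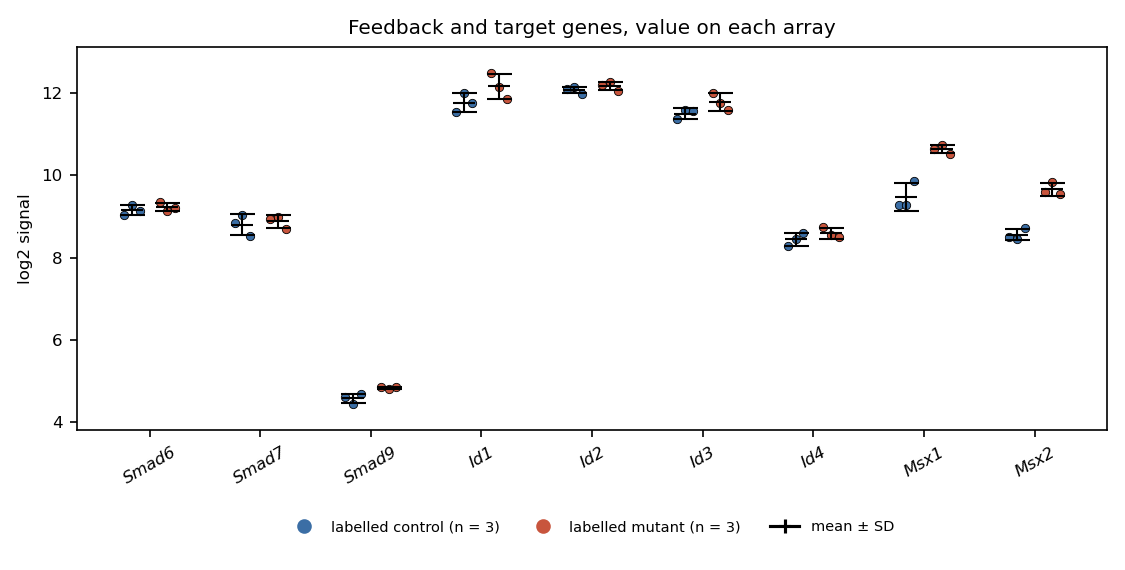
Log2 signal of the 7 feedback or target genes and of Msx1 and Msx2 on each array, with points for arrays and bars for the mean ± SD of 3 arrays, labelled control in blue and labelled mutant in red. At the brightest probe set of each gene, the groups overlap for the Id genes, Smad6 and Smad7. They are apart for Smad9, Msx1 and Msx2. Levels of different genes are not comparable.

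Further genes of the pathway were taken from a list of 65, of which 55 were measured. Of these 2 were called higher, 6 lower and 47 were not called, a share of 14.5% against 5.53% of all genes. The 2 that rose were targets. Msx1, a homeobox gene that BMP4 induces in arch mesenchyme, read 9.29, 9.28 and 9.87 on the labelled-control arrays and 10.64, 10.73 and 10.53 on the labelled-mutant arrays. Its labelled-mutant values were all higher by more than the spread of either group. It rose by 1.15 (standard error 0.16, limma adjusted p = 0.00424), and missed the threshold in 1 of 13 alternatives, with floored signals (0.0682; lowest 2.89e-04). Msx2 read 8.51, 8.46 and 8.72 against 9.59, 9.84 and 9.56 and rose by 1.10 (standard error 0.11, limma adjusted p = 8.14e-04). Other targets did not pass. The BMP-responsive helix-loop-helix gene Atoh8 differed by 0.35 and the TGF-beta-induced matrix gene Tgfbi by -0.54 (limma adjusted p = 0.0531 and 0.0611), both without overlap of the groups, and Junb, Hey1 and Pmepa1 differed by 0.01, -0.04 and -0.29.

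Of the 6 further genes called lower, 4 were among the 12 extracellular antagonists or matrix carriers measured. This was 33.3% of the 12, against 4.3% of all genes called lower. Ltbp3, another latent TGF-beta binding protein, read 9.33, 9.35 and 9.18 against 8.47, 8.14 and 8.13 and fell by 1.04 (standard error 0.11, limma adjusted p = 0.00126). Fstl1, a secreted follistatin-like protein of mesenchyme, read 12.09, 12.17 and 12.14 against 11.56, 11.42 and 11.42 and fell by 0.67 (adjusted p = 0.00206). Both kept their call under all 13 alternatives. Sostdc1, an antagonist of BMP and Wnt ligands, read 9.75, 10.05 and 9.50 against 9.31, 8.87 and 8.81 and fell by 0.77 (adjusted p = 0.0343). Kcp, a chordin-like protein, read 9.997, 9.938 and 9.873 against 9.635, 9.503 and 9.471 and fell by 0.40 (adjusted p = 0.0238), all from limma. Sostdc1 missed the threshold in 6 of 13 alternatives and Kcp in 5, with limma adjusted p of up to 0.155 and 0.130. Both lost it without labelled-control array 1 (differences -0.78 and -0.37, adjusted p = 0.0817 and 0.0523) or 2 (-0.63 and -0.40, adjusted p = 0.115 and 0.0758), and without labelled-mutant array 2 (-0.71 and -0.38, adjusted p = 0.136 and 0.115) or 3 (-0.68 and -0.37, adjusted p = 0.142 and 0.130).

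Rgma, a BMP co-receptor also known from axon guidance, read 6.85, 6.94 and 7.22 against 6.44, 6.26 and 6.26 and fell by 0.68 (limma adjusted p = 0.00920). It missed the threshold without labelled-mutant array 3 (-0.65, adjusted p = 0.0514) and with floored signals (0.0722), and its lowest value over 13 alternatives was 0.00824 (limma). Bmp1, despite its name a protease that cleaves chordin and procollagens, read 9.40, 9.37 and 9.36 against 8.88, 8.86 and 8.81 and fell by 0.53 (limma adjusted p = 0.00380). With the mean of its 3 probe sets the difference was -0.35 (adjusted p = 0.0680), the highest of 13 alternatives, whose lowest was 0.00186 (limma). Of 13 SMAD proteins and intracellular regulators none was called with limma. An unadjusted p below 0.05 was found for 3405 of all 18194 genes and for 2 of these 13. Their differences ran from -0.18 for Ski to 0.25 for Tgif2, with Smad1, Smad5 and Smad4 at 0.07, -0.07 and 0.03 and Smad2 and Smad3 at 0.09 and 0.05.

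**Figure D5:**
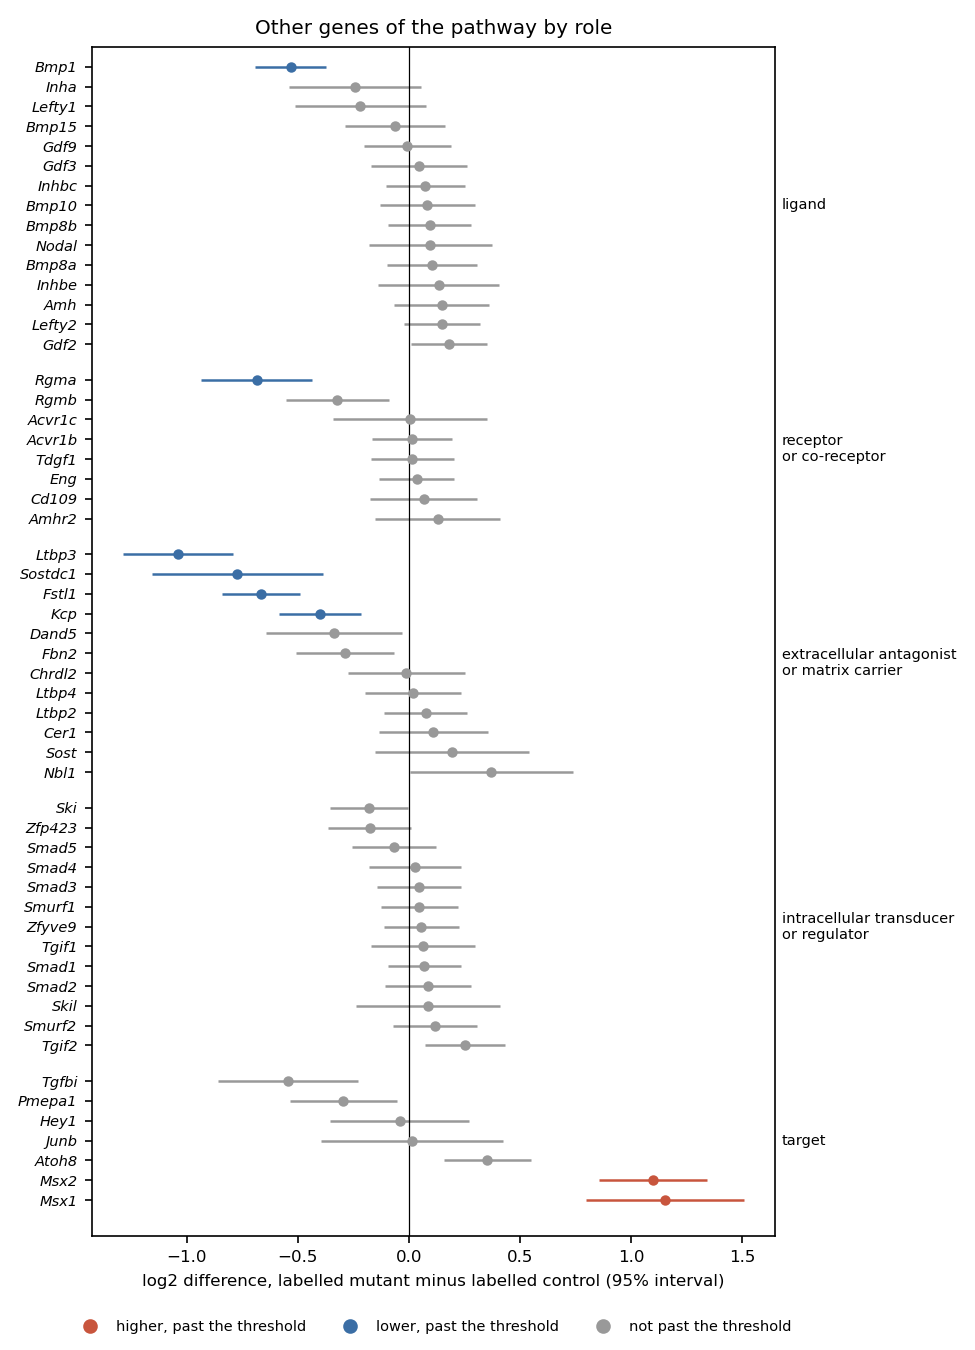
Log2 difference (labelled mutant minus labelled control, n = 3 arrays each) with its 95% interval from limma for 55 further pathway genes by role, blue for lower and red for higher among those past the threshold. Ltbp3 is lowest and Msx1 and Msx2 are highest, while the 13 intracellular transducers lie between -0.18 and 0.25.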

How the data were processed

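Total RNA of single branchial arches was measured on 1-colour arrays, 3 labelled control and 3 labelled mutant. The deposited values are log2 signals per probe set, brought to 1 common distribution by the authors, as the equal quantiles of the arrays show; the log base was inferred from the values, and no source used here names the background correction, summary method or software. Such scaling hides any general shift of all genes. Of 45101 probe sets 34958 had 1 symbol in the 2016 platform annotation, 932 had several and 9211 had none; the last 2 kinds were not used. Detection calls were not used here, and no filter on dim genes was applied.

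Differences were fitted with limma 3.58.1 in R 4.3.3 (lmFit, eBayes, no covariate, adjusted p below 0.05 called). Intervals are 95% moderated intervals. Every listed gene is accounted for; called genes are given on every array. Of the rest, the 2 per role with the largest absolute moderated t and any with a second probe set past the threshold are described singly, not always by array. Others, Bmp4 and Acvr2b among them, were named after their values were seen. The members and lists were chosen with earlier results of these data known. On simulated arrays of 18194 genes, 72% of genes raised by 0.5, 98% of those raised by 1 and 98% of those lowered by 1 on the log2 scale were recovered, and 5.64% of 195 calls were false. The simulated noise was normal and independent between genes, with limma's moderated variance as the true variance of each gene. These shares may therefore be too high for the real arrays. Alternatives were a replicate block, leaving out each array, quantile normalization, median centring, the mean of probe sets, a floor at the 20th percentile, dim genes left out, trend and robust settings, and all probe sets. CG counts used Python 3.11.15 and pandas 2.3.3.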

Additional observations from a re-analysis of the deposited data

How the results depend on the processing

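Of the 11 called pathway genes, 5 (Gdf5, Gdf10, Inhba, Bmpr1b and Bambi) passed in every alternative that tested them, Gdf5 not being tested with dim genes left out. No called gene changed direction in any alternative. The count of called genes was 1007 over all genes and 11 over the pathway list. It was 329 and 5 with signals floored at the 20th percentile, and from 435 to 1021 and from 6 to 13 when single arrays were left out. For all genes it was lowest without labelled-mutant array 3 (435), labelled-mutant array 2 (481) and labelled-control array 2 (551), and for the pathway list without labelled-mutant array 3 (6) and labelled-control array 2 (7). Quantile normalization, centring on the array median, and trend and robust settings called the same 11 pathway genes. The floor left signals above it unchanged. The cause of each lost call was not tested.

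The replicate numbers did not pair the arrays. Deviations from the group means correlated at -0.211, -0.122 and -0.0661 between arrays of the same number, and 0 of 6 arrays correlated best with their own number. With the replicate block 657 genes and 8 of the pathway list were called, all 8 among the 11. Tgfb2 (limma adjusted p = 0.0622), Tgfbr2 (0.0965) and Tgfbr3 (0.0524) missed the threshold there, as did Kcp (0.0584) among the further pathway genes.

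Signs turned among pathway genes that were not called, all with differences near 0. When single arrays were left out, the log2 difference ran from -0.00733 to 0.124 for Inhbb, from -0.035 to 0.075 for Bmpr1a, from -0.0533 to 0.0817 for Bmpr2, from -0.0562 to 0.0452 for Acvr2a, from -0.103 to 0.0643 for Nog, from -0.0932 to 0.0528 for Chrdl1, from -0.108 to 0.0767 for Twsg1, from -0.150 to 0.325 for Bmper and from -0.0588 to 0.195 for Smad7. With the mean of probe sets it was -0.253 for Inhbb, -0.067 for Tgfbr1 and -0.0375 for Bmpr1a, and with floored signals it was 0.000667 for Nog. Detection was not measured, so differences of dim genes such as Nog cannot be bounded by background.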
